A study of Monascus purpureus with 6 samples.

Results

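Small GTPases are molecular switches, and here they were followed together with the proteins that turn them on and off. From a de novo RNA-Seq table of *M. purpureus*, the members were the unigenes whose Pfam description named the Ras family, the ADP-ribosylation factor (Arf) family, a RhoGAP, RhoGEF, RasGEF or Rab-GTPase-TBC domain, or the Arf GTPase activating domain, without a protein kinase domain. Of 24261 unigenes in the table, 129 carried such a description, 2 of these had no FPKM listed, and the other 127 had a mean of at least 0.1 FPKM (fragments per kilobase of unigene, scaled to the fragments of the library) and were kept. A unigene is a sequence assembled from the reads, so that a gene can have several unigenes (isoforms), and the members came from 95 assembled genes. The choice used the annotation and this floor only, not the response to taurine.

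The strain MP2022 is a wild-type isolate (genotype WT), and its mycelia grew in fermentation medium, shaken at 150 rpm, and were harvested on day 1. The labels give a temperature of 25 °C, and the study's methods add a pre-culture at 30 °C, without placing day 1 against that change. The 3 control libraries came from mycelia not treated with taurine, and the 3 taurine libraries from mycelia given 4.0 g/L taurine, an amino sulfonic acid. All 6 libraries shared strain, medium and day. Whether the 3 libraries of a group came from separate flasks is not given in the sources used here, so the spread between them, on which each p rests, may be technical.

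A small GTPase is active when it holds GTP and inactive when it holds GDP. Guanine nucleotide exchange factors (GEFs) load GTP, and GTPase activating proteins (GAPs) speed its hydrolysis. In filamentous fungi, Cdc42 and Rac guide polarity and the actin cytoskeleton at the hyphal tip, Rab and Arf GTPases direct vesicle traffic, Ras GTPases relay growth signals, and Ran drives transport into the nucleus.

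By class, 73 members were GTPases, 39 were GAPs and 10 were GEFs. The GTPases comprised 26 Rab, 13 Arf, 12 Ras, 9 Rac, 2 Tem1, 1 Cdc42 and 1 Ran unigenes, and 9 more that enter the counts and are not described singly here. The GAPs comprised 20 with a TBC domain, a domain typical of Rab GAPs, 10 RhoGAP and 9 ArfGAP unigenes. The GEFs comprised 7 RasGEF and 3 RhoGEF unigenes. The other 5 members matched the rule by Pfam, but their KEGG or NR (non-redundant protein database) annotation named an alcohol dehydrogenase or a solute carrier of family 35, so the label holds for 122 of the 127. Protein names below are those of KEGG, many of them taken from animals.

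The libraries were of like depth, at 18000000 to 19400000 fragments, which were inferred from how low FPKM values are stepped. Control replicate 2 had the lowest sum of FPKM, 797244, against 831359 to 865009 in the other 5. Of the members 113 were above 0 in each of the 6 libraries, and those of at least 10 FPKM rested on at least 27.4 estimated fragments in each library.

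Members spanned 4 orders of magnitude in level, from 0.11 to 1170 FPKM on average over the 6 libraries, with a median of 9.50 FPKM against 2.45 FPKM for all 20381 unigenes tested. Above all others stood Ran, and Arf1/2 and Sar1 were among the next. Median levels were 9.11 FPKM for GTPases, 11.3 FPKM for GAPs and 7.93 FPKM for GEFs, but only GTPases passed 143 FPKM. Together the members held 0.571% to 0.590% of all FPKM of a library.

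**Figure D1:**
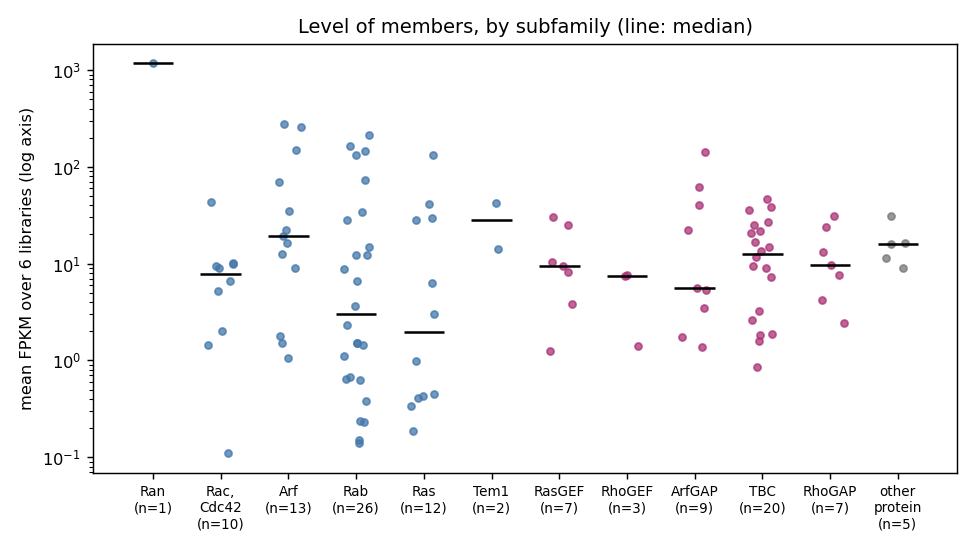
Mean FPKM over 6 libraries (log axis) of 115 of the 127 members, grouped by subfamily, with 1 point per unigene and a line at the median; blue points are GTPases, purple points regulators and grey points the 5 other proteins. Ran stands at 1170 FPKM, and Rab spreads from 0.14 to 215 FPKM.

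The comparison of taurine with control asked whether RNA levels of these switches and regulators differed on day 1. No member passed an adjusted p of 0.05 (limma on log2(FPKM + 1), Benjamini-Hochberg over all 20381 tested unigenes), and the lowest adjusted p of a member was 0.999. Over all tested unigenes 8 passed, or 0.0393%. Simulated data with 0 changed unigenes, drawn at an assumed dispersion of 0.03 for every unigene, gave 10 calls among 18410 unigenes. Because that dispersion was not estimated from these libraries, the run does not show how many calls they would give without a change. Without adjustment, 3 members were higher with taurine at p under 0.05 and 0 were lower, where 1.63% of tested unigenes were higher and 1.03% lower. Without control replicate 2 there were 5 such members in either direction, where 4.44% of tested unigenes passed, and without taurine replicate 3 there were 6, where 2.96% passed.

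Signs were close to evenly split, with 61 members higher and 66 lower on average. Of all 20381 tested unigenes, 11054 were higher and 9327 lower. The median log2 fold change was -0.0018 over the members and 0.022 over all tested unigenes. By class it was -0.00090 for GTPases, -0.0063 for GAPs and -0.029 for GEFs. Of members with at least 10 FPKM, 45 of 61 lay within 0.1 of 0 on the log2 scale (73.8%), as did 60.5% of all tested unigenes at that level.

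How large a difference could have been missed is given by the 95% intervals of the fold change. They lay within 1 unit of log2(FPKM + 1) for 111 of 127 members, and for 60 of the 61 members of at least 10 FPKM. At 10 FPKM and above 1 unit is close to a doubling or halving, while for lower members it can stand for a larger fold change. Within 0.5 the intervals lay for 48 of the 61 members of at least 10 FPKM (78.7%, against 69.3% of tested unigenes at that level). The exception among the abundant members was a short Sos unigene of 577 bases, described with the RasGEFs. A difference as large as these bounds need not pass the adjusted threshold with 3 libraries a group. In simulated data, 6% of log2 changes of 1 were recovered in unigenes of at least 10 FPKM, and 97.5% of changes of 2. The simulated dispersion of 0.03 gives a wider spread than most unigenes of that level had here. Within groups, their median SD on the log2 scale was 0.112 for members and 0.157 for all tested unigenes. Recovery in these data can therefore be higher than in the simulated data. A missed threshold does not show that levels were equal.

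**Figure D2:**
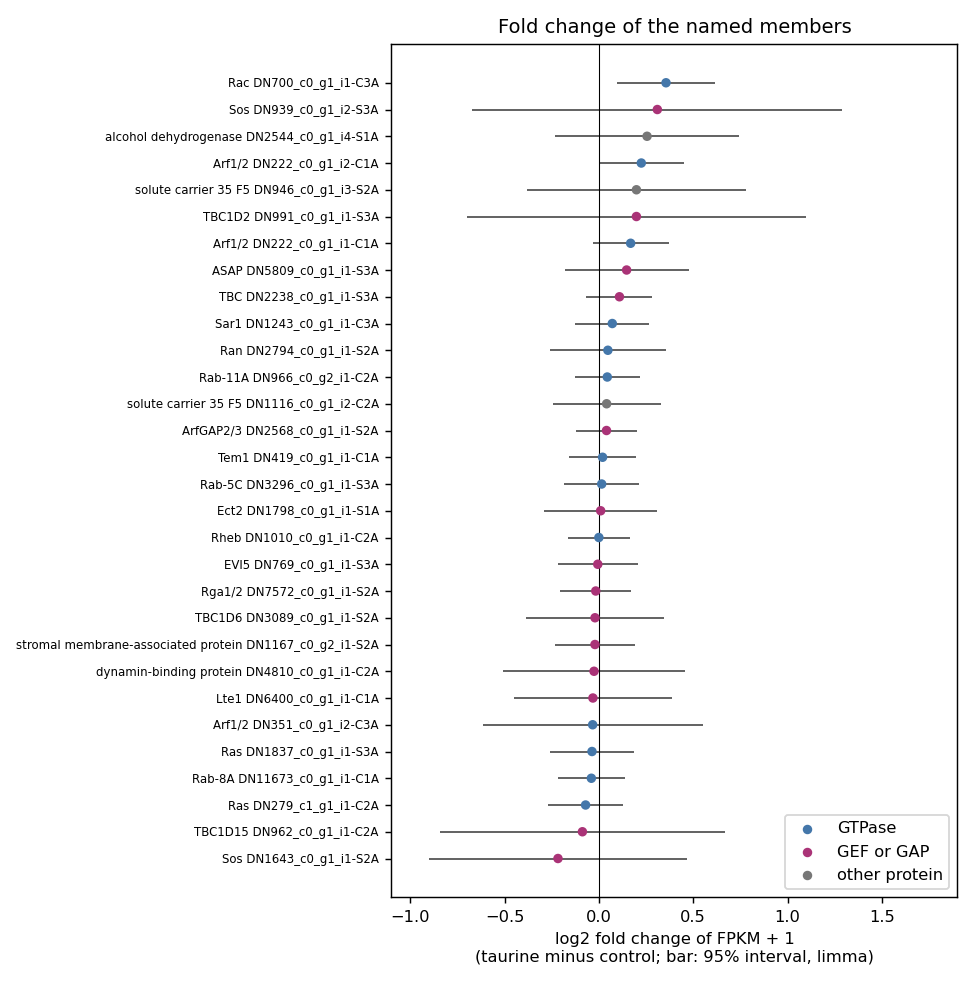
Log2 fold change of FPKM + 1, taurine minus control (x axis, positive is higher with taurine), for 30 named members, with bars for the 95% interval from limma. Intervals of 28 of them include 0, and Rac DN700_c0_g1_i1-C3A has the highest value, 0.36.

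Ran moves proteins and RNA through nuclear pores. Its unigene (TRINITY_DN2794_c0_g1_i1-S2A, 1156 bases) had 1252, 992 and 1217 FPKM in control replicates 1, 2 and 3, and 1154, 1248 and 1158 FPKM in taurine replicates 1, 2 and 3. Control replicate 2 was the lowest of the 6 and control replicate 1 the highest, so the groups overlapped. The control mean was 1154 ± 141 FPKM (SD, n = 3), the taurine mean was 1187 ± 53.0 FPKM (SD, n = 3), and the difference was 0.05 on the log2 scale with a 95% interval of -0.26 to 0.35.

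Cdc42, which sets polarity at the tip, had 1 unigene (TRINITY_DN3432_c0_g1_i1-S1A). In the control it had 11.2, 6.78 and 10.4 FPKM, and in the taurine libraries 11.3, 10.6 and 10.4 FPKM. Control replicate 2 was the lowest of the 6, and the groups overlapped (log2 fold change 0.20).

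Rac, a relative of Cdc42 that shapes hyphal branching in several filamentous fungi, gave the member with the lowest p among those of at least 1 FPKM. In the control this isoform (TRINITY_DN700_c0_g1_i1-C3A, 3828 bases) had 7.75, 7.82 and 7.74 FPKM, and with taurine 9.37, 10.6 and 10.7 FPKM. All 3 taurine libraries lay above all 3 control libraries, which differed by less than 0.1 FPKM. The log2 fold change was 0.36 (SE 0.11, 95% interval 0.10 to 0.61) and its adjusted p by limma was 0.999.

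The 3 other isoforms of that assembled gene did not follow. Isoform i2 had 8.82, 4.83 and 7.01 FPKM in the control and 8.30, 5.57 and 5.59 FPKM with taurine, and the remaining pair had means of 1.43 and 0.11 FPKM. Summed over the 4 isoforms, the gene had 18.5, 14.0 and 16.9 FPKM in the control and 18.9, 17.4 and 17.7 FPKM with taurine, so that the groups overlapped. The log2 fold change of the sum was 0.13. The share of isoform i1 in the sum was 41.9%, 56.0% and 45.9% for the 3 controls and 49.6%, 60.8% and 60.5% for the 3 taurine libraries, again with overlap.

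**Figure D3:**
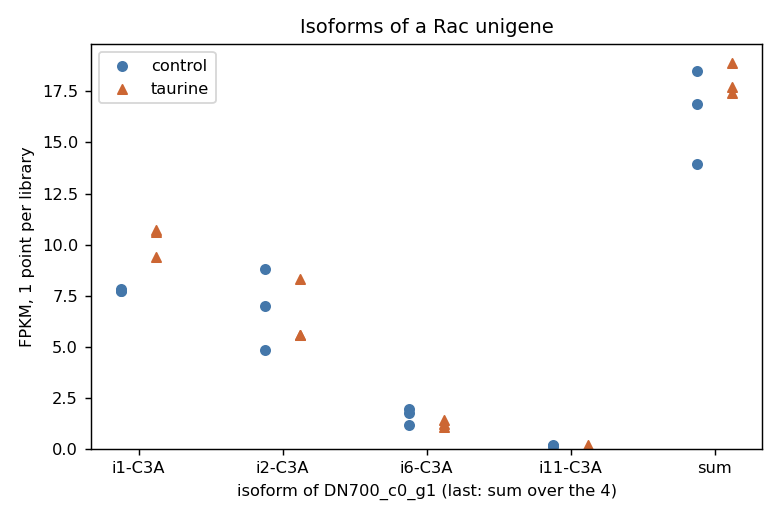
FPKM of the 4 isoforms of the Rac gene DN700_c0_g1 and of their sum (y axis, from 0), with 1 point per library, circles for control and triangles for taurine. Only i1 separates the groups (at most 7.82 against at least 9.37 FPKM), and the sum does not.

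A separate Rac protein, annotated as rac1 of *M. purpureus*, was carried by 5 unigenes. Their sum was 72.6, 65.9 and 68.7 FPKM in the control and 69.3, 74.3 and 66.2 FPKM with taurine, a log2 fold change of 0.02. The main one, TRINITY_DN704_c0_g1_i2-S1A, held 60.5% ± 0.6 (SD, n = 3) and 63.2% ± 4.4 (SD, n = 3) of it in the 2 groups.

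Arf GTPases recruit vesicle coats at the Golgi. The most abundant Arf1/2 isoform (TRINITY_DN222_c0_g1_i1-C1A) had 265, 273 and 242 FPKM in the control and 285, 309 and 283 FPKM with taurine. The groups did not overlap, at a log2 fold change of 0.17 (SE 0.08). Isoform i2 of the same gene (TRINITY_DN222_c0_g1_i2-C1A) behaved alike, with 18.5, 18.5 and 16.6 FPKM in the control and 22.1, 19.6 and 21.4 FPKM with taurine, 0.22 higher on the log2 scale (SE 0.09). For both isoforms the adjusted p was 0.999 (limma). The third isoform, i3, had a log2 fold change of 0.00.

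A further unigene with the same NR hit, TRINITY_DN351_c0_g1_i2-C3A, had 182, 97.7 and 177 FPKM in the control and 138, 152 and 139.9 FPKM with taurine. Control replicate 2 was the lowest of the 6 and the other 2 control libraries the highest. Its share of this Arf1/2 protein was 24.1% in control replicate 2 and 37.7% and 39.1% in the other 2 controls, while in the taurine libraries it was 29.8% to 30.6%. Summed over the 4 unigenes, Arf1/2 had 482, 405 and 452 FPKM in the control and 462, 497 and 459 FPKM with taurine, and the groups overlapped (log2 fold change 0.09).

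Sar1 starts the COPII coat that carries cargo out of the endoplasmic reticulum. Its unigene (TRINITY_DN1243_c0_g1_i1-C3A) had 264, 233 and 254 FPKM without and 271, 265 and 252 FPKM with taurine, and the log2 fold change was 0.07 (SE 0.08). Arf6, an Arf of the plasma membrane in animals, was at 69.6 FPKM on average. Of the 13 Arf unigenes 7 were higher and 6 lower.

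Rab GTPases give each membrane compartment its identity. Rab-11A, whose yeast counterparts act in traffic from the late Golgi, led this group. Its unigene (TRINITY_DN966_c0_g2_i1-C2A) had 220.25, 206 and 209 FPKM in the control and 215, 227 and 212 FPKM with taurine, and the groups overlapped (log2 fold change 0.04, 95% interval -0.13 to 0.22). Rab-5C of early endosomes (TRINITY_DN3296_c0_g1_i1-S3A) had 151, 177 and 167 FPKM without and 165, 163 and 171 FPKM with taurine, all 3 of the latter inside the control range.

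Rab-8A, related to yeast Sec4 of exocytosis, was carried by TRINITY_DN11673_c0_g1_i1-C1A. It had 141, 154 and 144 FPKM in the control and 149, 139 and 139 FPKM with taurine, a log2 fold change of -0.04. Rab-6A of the Golgi was steadiest among these abundant Rabs, at 130.2 to 133 FPKM in the control and 133 to 138 FPKM with taurine. Over the 26 Rab unigenes, 14 were higher and 12 lower, 0 had groups that did not overlap (3.78% of all tested unigenes were wholly higher and 2.62% wholly lower), and summed levels were 855 to 865 FPKM in the control and 856 to 880.02 FPKM with taurine.

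The Rab floor was broad, since 8 of the 16 members under 1 FPKM were Rab unigenes. Most of these carry the annotation of Rab-2A or Rab-4B, for which 7 and 6 unigenes share a protein. Few fragments stand behind such values, and the fold changes of these 8 lay between -0.29 and 0.36 on the log2 scale.

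**Figure D4:**
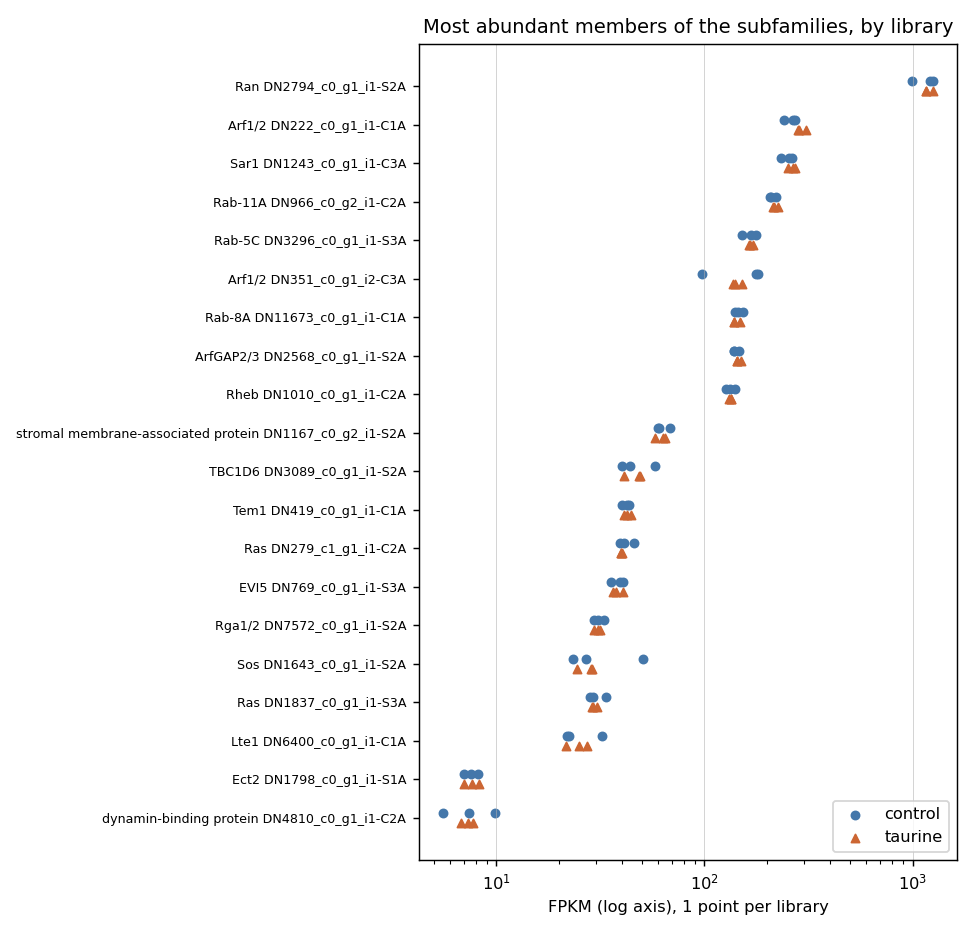
FPKM (log axis) of the most abundant members of the subfamilies, with 1 point per library, circles for the 3 control and triangles for the 3 taurine libraries. The 2 groups lie over each other except for Arf1/2 DN222_c0_g1_i1-C1A, and single control points stand apart for Arf1/2 DN351_c0_g1_i2-C3A (97.7 FPKM) and Sos DN1643_c0_g1_i1-S2A (50.95 FPKM).

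Among the Ras-type GTPases, Rheb, an activator of the TOR kinase, was highest. Without taurine its unigene (TRINITY_DN1010_c0_g1_i1-C2A) had 139.84, 127 and 133 FPKM, and with taurine 132, 135 and 133 FPKM, so that the taurine range lay inside the control range (log2 fold change 0.00, 95% interval -0.17 to 0.17). The next unigenes by level were a pair from different Ras genes. TRINITY_DN279_c1_g1_i1-C2A had 41.0, 45.7 and 39.3 FPKM in the control and 39.6, 40.3 and 39.6 FPKM with taurine, and TRINITY_DN1837_c0_g1_i1-S3A was at 28.1 to 33.6 FPKM and 28.7 to 30.4 FPKM. In both, control replicate 2 was the highest library. A further Ras gene, annotated as ras2, had 2 isoforms that summed to 34.0 to 34.6 FPKM in the control and 32.6 to 36.8 FPKM with taurine.

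Rsr1, the Rap-type GTPase of bud-site selection in yeast, was scarce. Its isoform TRINITY_DN3167_c0_g1_i1-S1A (558 bases) was listed at 0 in all 3 control libraries and at 0.34, 0.90 and 1.36 FPKM with taurine, the latter at most 6.69 estimated fragments. It is named after its values were seen, as the last of the 3 members past an unadjusted p of 0.05. Summed over the 4 unigenes of this Rsr1 protein, the level was 3.55, 3.26 and 4.32 FPKM in the control and 4.80, 3.57 and 5.51 FPKM with taurine, and the groups overlapped.

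A Ras unigene of 334 bases (TRINITY_DN2370_c0_g1_i1-C1A), also picked out after its values were seen, was the only member with every taurine value below every control value. It had 1.71, 1.23 and 1.07 FPKM in the control and 0.99, 0.90 and 0 FPKM with taurine, each at most 1.52 estimated fragments. Adding the other short unigene of its protein removed the separation, since taurine replicate 1 then had 2.12 FPKM. Tem1, the switch of the mitotic exit and septation network, was nearly level, with 40.1, 43.4 and 42.5 FPKM for TRINITY_DN419_c0_g1_i1-C1A in the control and 44.4, 42.3 and 41.0 FPKM with taurine.

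Members whose groups did not overlap numbered 6 higher and 1 lower with taurine, or 7 of 127, where 3.78% of all tested unigenes were wholly higher and 2.62% wholly lower. Besides Rac, both Arf1/2 isoforms, Rsr1 and the short Ras unigene, they were ASAP and a TBC protein. ASAP, an ArfGAP of animals (TRINITY_DN5809_c0_g1_i1-S3A), had 5.51, 5.63 and 4.70 FPKM in the control and 6.40, 5.75 and 5.68 FPKM with taurine. The TBC protein, to which KEGG gives the name of a Rab geranylgeranyl transferase subunit (TRINITY_DN2238_c0_g1_i1-S3A), had 26.8, 25.1 and 25.7 FPKM in the control and 28.3, 27.6 and 28.0 FPKM with taurine.

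When unigenes with the same NR hit and KEGG number were summed, 0 of 71 proteins had groups that did not overlap, against 6.13% of all 15337 sums. At an unadjusted p under 0.05 there were also 0 of 71, against 2.42% of all sums. This summing was chosen after the data were seen, it takes in unigenes outside the members where they share the annotation, and 18 of the 71 proteins joined 55 members from more than 1 assembled gene each.

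Among ArfGAPs, ArfGAP2/3, which acts on the COPI coat, was the most abundant regulator. Its unigene (TRINITY_DN2568_c0_g1_i1-S2A) had 139, 138 and 146 FPKM in the control and 149, 143 and 143 FPKM with taurine, which differ by 0.04 on the log2 scale (SE 0.07). A stromal membrane-associated protein (TRINITY_DN1167_c0_g2_i1-S2A), an ArfGAP of clathrin-coated membranes in animals, had 60.4, 68.4 and 59.9 FPKM without and 63.6, 57.7 and 64.6 FPKM with taurine.

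RhoGAPs were close to level, with fold changes between -0.19 and 0.10 on the log2 scale. Rga1/2, which turns off Cdc42 in yeast (TRINITY_DN7572_c0_g1_i1-S2A), was at 29.5 to 32.8 FPKM and 29.6 to 31.6 FPKM. In 6 of the 10 RhoGAP unigenes control replicate 2 was the highest of the 6 libraries. Over all tested unigenes the share was lower, at 5762 of 20381.

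Of the TBC proteins, TBC1D6 (TRINITY_DN3089_c0_g1_i1-S2A) had 40.2, 57.7 and 43.9 FPKM in the control and 49.0, 41.0 and 48.5 FPKM with taurine. EVI5, a GAP linked to Rab11 in animals (TRINITY_DN769_c0_g1_i1-S3A), had 40.8, 39.2 and 35.5 FPKM without and 40.8, 36.5 and 37.6 FPKM with taurine. TBC1D15, a GAP for Rab7 in animals, varied more. Its unigene TRINITY_DN962_c0_g1_i1-C2A had 22.8, 56.6 and 35.2 FPKM in the control and 34.6, 29.1 and 37.6 FPKM with taurine, so that both the highest and the lowest library were controls.

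TBC1D2 showed the same kind of spread within the taurine group. Its unigene TRINITY_DN991_c0_g1_i1-S3A had 2.52, 2.35 and 1.87 FPKM in the control and 2.25, 1.47 and 5.37 FPKM with taurine, where taurine replicate 3 alone was high. With the second unigene of that protein added, the sum was 24.6 to 25.3 FPKM in the control and 23.3 to 25.1 FPKM with taurine.

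RasGEFs varied between libraries of a group. Sos, the exchange factor for Ras (TRINITY_DN1643_c0_g1_i1-S2A, 5438 bases), had 23.3, 50.95 and 26.9 FPKM in the control and 28.4, 24.4 and 29.0 FPKM with taurine. Control replicate 2 stood above the other 5 libraries, of which the next had 28.98 FPKM, and the log2 fold change of -0.22 had a 95% interval of -0.90 to 0.47. The short Sos unigene with the same NR hit (TRINITY_DN939_c0_g1_i2-S3A) had 5, 13.3 and 9.72 FPKM in the control and 14.3, 6.59 and 14.0 FPKM with taurine.

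Lte1, a mitotic exit protein of yeast with a RasGEF domain (TRINITY_DN6400_c0_g1_i1-C1A), had 21.8, 32.3 and 22.5 FPKM without and 25.0, 21.6 and 27.3 FPKM with taurine. Again control replicate 2 was highest. Summed over all 7 RasGEF unigenes, the 3 controls had 73.6, 122 and 79.6 FPKM, and the 3 taurine libraries 90.9, 73.0 and 94.1 FPKM.

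RhoGEFs were few and low. Ect2, an exchange factor of cytokinesis in animals (TRINITY_DN1798_c0_g1_i1-S1A), was at 7.02 to 8.18 FPKM in the control and 6.99 to 8.29 FPKM with taurine. A dynamin-binding protein, an exchange factor for Cdc42 in animals (TRINITY_DN4810_c0_g1_i1-C2A, 6239 bases), had 5.56, 9.81 and 7.41 FPKM without and 7.77, 6.76 and 7.30 FPKM with taurine.

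The 5 members of other annotation had fold changes between -0.24 and 0.25 on the log2 scale. The alcohol dehydrogenase isoform TRINITY_DN2544_c0_g1_i4-S1A had 16.0, 10.8 and 17.0 FPKM in the control and 20.02, 18.1 and 14.3 FPKM with taurine, with overlap. The solute carrier unigenes TRINITY_DN1116_c0_g1_i2-C2A and TRINITY_DN946_c0_g1_i3-S2A were at 28.3 to 34.8 FPKM and 5.95 to 11.3 FPKM in the control, and at 29.4 to 34.9 FPKM and 7.80 to 11.2 FPKM with taurine.

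Libraries of a group differed in how GTPases stood to their regulators. Control replicate 2 was above both other controls for 31 of the 49 GEF and GAP unigenes (63.3%) and below both for 7 (14.3%). Over all tested unigenes it was above both for 39.4% and below both for 31.9%. Among regulators of at least 10 FPKM it was above both for 16 of 23 (69.6%), and among GTPases of that level it was above both for 10 of 34 and below both for 19 (55.9%). Of all 5904 tested unigenes of that level 1892 were above both and 3335 (56.5%) below both, so that the share of GTPases was near that of all unigenes and the share of regulators was not. GTPases summed to 4105, 3692 and 3970.34 FPKM in control replicates 1, 2 and 3, and to 3979.87, 4062 and 3905 FPKM in the taurine libraries. Of these sums, the single Ran unigene held 1252, 992 and 1217 FPKM in the controls and 1154, 1248 and 1158 FPKM with taurine. The regulators summed to 779, 934 and 823 FPKM in the controls and to 866, 787 and 861 FPKM in the taurine libraries. Per 100 FPKM of GTPases there were therefore 19.0, 25.3 and 20.7 FPKM of regulators in the control and 21.8, 19.4 and 22.0 with taurine, with overlap of the groups and the 2 extremes both in the control.

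Unigene length differed between the classes, as regulators are long (median 3537 bases for GAPs and 5367 for GEFs) and GTPases short (median 1484 bases). Over members of at least 10 FPKM, Spearman's correlation between length and the difference of a library from the other 2 of its group was 0.52 for control replicate 2, -0.44 for control replicate 1, -0.43 for control replicate 3 and -0.35 for taurine replicate 2 (n = 61 unigenes of the same libraries, given as a description). Over all 5904 tested unigenes at that level it was 0.30, -0.31, -0.16 and -0.40. For taurine replicates 1 and 3 it was 0.20 and 0.14 over the members, and 0.21 and 0.33 over all these unigenes. Within the classes, with the first 4 libraries in the same order, it was 0.37, -0.35, -0.25 and -0.15 for the 34 GTPases. For the 23 regulators it was 0.28, -0.19, -0.51 and 0.04. The part of length in the differences of single members was not tested.

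**Figure D5:**
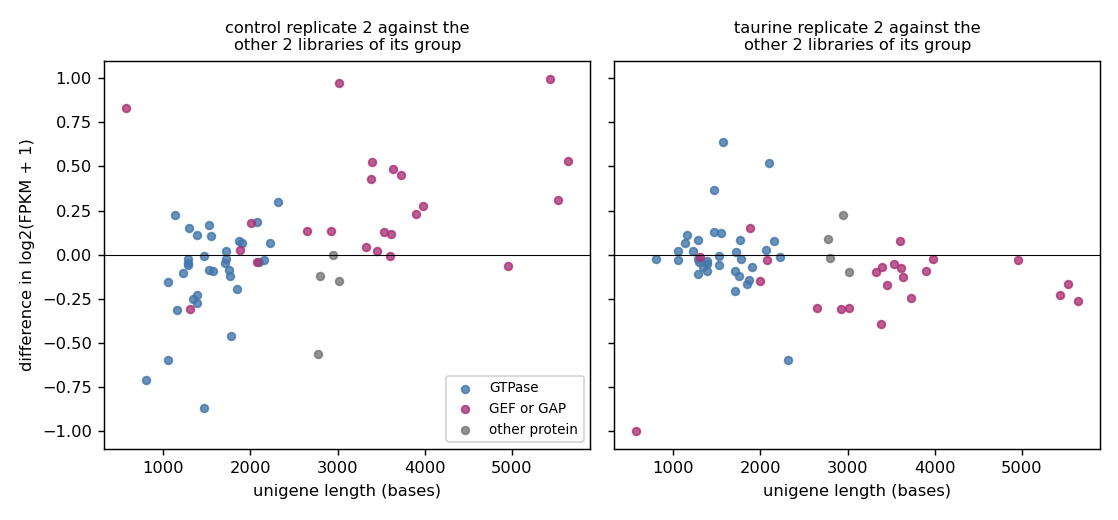
Difference in log2(FPKM + 1) of control replicate 2 (left) and taurine replicate 2 (right) from the mean of the other 2 libraries of its group (y axis), against unigene length in bases (x axis), for the 61 members of at least 10 FPKM. In control replicate 2, 16 of 23 regulators of at least 10 FPKM lie above both other controls, and 10 of 34 GTPases do.

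Taurine replicate 2 stood the other way and was below both other taurine libraries for 30 of the 49 regulators (61.2%, against 36.3% of all tested unigenes). It was so for 18 of the 23 of at least 10 FPKM (78.3%, against 46.2% of all tested unigenes of that level). Taurine replicate 1 was above both others for 24 of the 49 (49.0%, against 38.3% of all tested unigenes).

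Further regulators of the cycle were counted from their Pfam descriptions. Of 15 lists, 12 had tested unigenes, 44 in all. Among them were Arf GEFs with a Sec7 domain (5), DENN proteins (2), VPS9 proteins that activate Rab5 (4), Ras GAPs (5), Rab GDP dissociation inhibitors (5), which keep Rab soluble, prenyltransferase alpha subunits (4) and repeat proteins of the prenyltransferase type (6), which include enzymes that attach the lipid anchor, RanBP1 proteins (3), RCC1 repeat proteins (4), Gtr1/RagA proteins (4) and a formin (1). None of the 44 passed an adjusted p of 0.05 or an unadjusted p of 0.05 in limma, and the lowest adjusted p was 0.999. By sign, 31 were higher and 13 lower (median 0.04 on the log2 scale), where 11054 of all 20381 tested unigenes were higher. Of the 44, 3 had all taurine values above all control values, against 3.78% of all tested unigenes. The other 3 lists, among them adenylate cyclases and Dock proteins, had 0 unigenes.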

How the data were processed

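RNA of *M. purpureus* mycelia (3 control and 3 taurine libraries, day 1) was sequenced and assembled de novo by the authors, who deposited 1 table with unigene length, annotation and the FPKM of each library. The submitters' processing notes name Bowtie2 2.2.5, RSEM 1.2.8 and DESeq, without their roles or order. Other deposited columns hold the authors' mean FPKM, log2 fold changes, p-values, q-values and false discovery rates for their own comparisons, and none of these was used. Columns were matched to libraries by name, and each direction rests on those names. No sequence or genome of the unigenes was used here, and the reference gene table matched 0 members. FPKM splits fragments between near-identical unigenes, so a single isoform is less certain than its sum.

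Values were analysed as log2(FPKM + 1). The 20381 unigenes with a mean of at least 0.1 FPKM (of 20581 with FPKM) were fitted together with limma 3.58.1 in R 4.3.3 (lmFit, then eBayes using its trend option). Tests were two-sided, and p was adjusted by Benjamini-Hochberg across that whole set. Summaries used scipy 1.17.1, numpy 2.4.6 and pandas 2.3.3 under Python 3.11.15. Fold changes are on the log2(FPKM + 1) scale, which understates changes of low unigenes. A single value compared by exact permutation of 3 against 3 libraries cannot go below p = 0.1.

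Depth was estimated as 18000000 to 19400000 fragments per library. Of the low values, 62.4% to 67.0% lay within 0.1 of a whole fragment, so no count test was run. The fit was tested on simulated data, with counts drawn from a negative binomial distribution at a dispersion of 0.03 for every unigene. This setting was assumed and not estimated from these libraries. With 0 unigenes changed, 10 of 18410 were called. In further runs 200 of 18397 unigenes, each of at least 10 FPKM, were changed. At a log2 change of 1, 6% of these were recovered and 12 unchanged unigenes were called. At a log2 change of 2, 97.5% were recovered and 16 unchanged unigenes were called. The interval held the change for 92.5% and 93.5% of the changed unigenes.

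Members and lists were chosen with earlier results of these data known. Named were the 3 most abundant genes of each GTPase subfamily and the 2 of each regulator class (genes ranked by their most abundant isoform), members past an adjusted p of 0.05, the 5 largest rises and falls without overlap of the groups, and the 3 with the widest range over libraries, the latter 2 sets from members of at least 500 bases and 1 FPKM. No fall met it. Of the members so chosen some are not reported here. Other members are named as examples, chosen after their values were seen. Alternatives were another pseudocount and floor, total scaling, quantile normalization, library weights, a length limit, summed isoforms, a replicate block and each library left out.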

Additional observations from a re-analysis of the deposited data

How the results depend on the processing

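The count of members past an adjusted p of 0.05 was 0 under every alternative run. The count past an unadjusted p of 0.05, 3 as reported, was 7 with library quality weights (10.1% of all tested unigenes passed), 0 with isoforms summed (2.46%), 1 with the replicate block (2.43%), 0 with unigenes of 1 protein summed (2.42%), and 2 to 6 with each library left out in turn (2.74% to 4.44%). The median log2 fold change of -0.0018 became 0.027 with the weights and -0.024 with quantile normalization, and ran from -0.019 to 0.024 with a library left out. Members whose groups did not overlap, 7 as reported, numbered 4 of 95 with isoforms summed (6.11% of all) and 0 of 71 with unigenes of 1 protein summed (6.13%), an alternative chosen after the data were seen. With a library left out, so that fewer values had to separate, they numbered 14 to 22 (12.1% to 17.5% of all). Of 510 values of the 34 named members under the alternatives, 507 moved by less than the spread between replicates, 60 changed sign (in 23 members, none above 0.31 in size), and the lowest adjusted p was 0.281. Same-numbered control and taurine libraries did not deviate together over all tested unigenes (correlations -0.022, -0.034 and -0.0085). This shows no large shared effect and cannot exclude a pairing, since a small one would leave such values. The authors' own comparisons include same-numbered libraries. Depth limits most the 18 members with under 10 estimated fragments in some library.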
